A study of Homo sapiens with 5 samples.

Results

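The genes described here code for proteins that bind interphase microtubules or move cargo along them. They are 53 of the 28442 gene rows of the deposited table, chosen by gene symbol from a list of microtubule binders, dynein and dynactin subunits, transport kinesins, their light chains and adaptors, and enzymes that sever or modify tubulin. Microtubules are polar polymers of alpha- and beta-tubulin. Lattice-binding proteins stabilise them, end-binding proteins ride on the growing plus end, and stathmins hold tubulin dimers back from the polymer. Cytoplasmic dynein, helped by dynactin and cargo adaptors, carries cargo toward the minus end, and most transport kinesins carry it toward the plus end. Several members, such as MAP2, tau and the kinesins KIF1A, KIF5A and KIF5C, are best known from neurons, whereas MAP4, KIF5B and the dynein subunits are used by nearly every cell type. HDAC6 removes the acetyl group of alpha-tubulin in these polymers and also acts on cortactin.

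RNA came from the established cell line TOV21G, derived from a human clear cell carcinoma of the ovary, and the title of the series ties HDAC6 to ovarian cancers with ARID1A mutations. The control libraries are shControl (cells with a control hairpin) and vehicle (cells with the drug solvent). The libraries with repressed HDAC6 are shHDAC6 (a hairpin against HDAC6), ACY1215 and CAY10603, the last 2 being cells given an HDAC6 inhibitor of that name. All cells grew in RPMI medium with fetal bovine serum and antibiotics, and the virus-infected cells, which carry a hairpin, were selected with puromycin. Each of the 5 treatments has 1 library and no replicate. The sources used here do not give doses, times, or which of the named HDAC6 hairpins was sequenced. The shRNA and drug pairs differ in infection and selection as well as in the intervention.

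Total counts ran from 43498805 in vehicle to 57442767 in shControl. HDAC6 itself stood at 48.0 CPM in shControl, 51.0 in vehicle, 29.2 in shHDAC6, 33.1 in ACY1215 and 48.2 in CAY10603, where CPM is a count made comparable between libraries of unequal size. Against shControl, the library labelled shHDAC6 held less of the transcript, with a log2 fold of -0.72 (interval -0.81 to -0.63), and ACY1215 held less than vehicle (-0.62). In CAY10603 the difference from vehicle was -0.08 (interval -0.17 to 0.00). Of the line's markers, PAX8 (103 to 144 CPM), KRT8 and KRT18 were present in every library, while NAPSA and KRT7 lay under 1 CPM in each. EPCAM, an epithelial marker, stood at 59.7 CPM in shControl, 59.5 in vehicle, 39.6 in shHDAC6, 29.6 in ACY1215 and 65.6 in CAY10603, and KRT19 at 5.48 CPM in shControl and 1.86 to 2.61 elsewhere. Intervals throughout are at 95%, cover counting error only, and say nothing of the spread between cultures.

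Per gene length, the members spanned from STMN1, at a mean of 555 FPKM over the 5 libraries, to MAP2 at 0.01 to 0.29 FPKM (FPKM is a count scaled to library size and transcript length, as the authors made it). STMN1, the stathmin that sequesters tubulin, ran from 400.3 to 676 FPKM, above every other member in every library. Next came the dynein light chain DYNLL1 (247 to 274 FPKM), then the kinesin-1 heavy chain KIF5B (176 to 219 FPKM), whose range overlapped that of cortactin (159 to 201 FPKM). Cortactin in turn overlapped the dynein intermediate chain DYNC1I2 (129 to 190 FPKM). DYNLT1, another dynein light chain, followed at 95.5 to 121 FPKM and did not overlap its neighbours. At the low end, 10 members had a mean under 2 FPKM: ATAT1, MAP1A, DYNC1I1, MAPRE3, MAP1S, MAP1B, MAPT, KIF5C, KIF1A and MAP2. A mean of at least 5 CPM, the floor used for counts of changed genes, was reached by 45 members. Below it were MAP1S, MAPT, MAPRE3, DYNC1I1, KIF1A, KIF5C and ATAT1, each between 1 and 5 CPM, and MAP2 under 1 CPM.

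The pooled comparison set the 3 libraries with repressed HDAC6 against the controls. None of the members did so by the test. With edgeR's quasi-likelihood test, 0 of 50 members tested passed an adjusted p of 0.05, against 0 of 13449 genes (percent called 0). At an unadjusted p under 0.05 the count was 0 members and 100 genes with edgeR, 0 members and 112 genes with DESeq2, and 0 members and 122 genes with limma-voom, and neither of the other tools called a gene after adjustment. Pooled log2 folds of the members ran from -0.21 (KLC4) to 0.89 (MAP1B, edgeR adjusted p = 1.00), with a median of 0.03 beside 0.00 over all genes. MAP2, KIF1A and KIF5C were not tested, because only ACY1215 held at least 1 CPM of each. The interventions are different treatments with 1 library each, so the spread behind these p-values holds differences between treatments. Without replicates, technical and culture spread cannot be told apart from it.

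The drug comparison ACY1215 against vehicle held the large differences. MAP1B, FEZ1, MAPT, MAPRE3, KIF1A, KIF5C and MAP2 were each at or past 2-fold higher in ACY1215, and no member was 2-fold lower, beside 3.04% of genes at a mean of at least 5 CPM and 4.15% at a mean of at least 1 CPM. At a mean of at least 5 CPM these were 2 of 45 members (4.44%, MAP1B and FEZ1), beside 1.67% of 10738 genes at or past 2-fold higher. At a mean of at least 1 CPM they were 6 of 52 members (11.5%), beside 3.13% of 13244 genes. These counts lean on ACY1215 itself, since MAP1B and FEZ1 reach 5 CPM, and KIF1A and KIF5C reach 1 CPM, only through that library; without it their means are 4.68, 4.40, 0.586 and 0.259 CPM. When the floor was set on the mean of the other 4 libraries, a setting chosen after seeing the data, 0 of 43 members at 5 CPM were past 2-fold higher, beside 1.41% of 10721 genes. At 1 CPM on that mean they were 4 of 50 (8%), beside 2.56% of 13182 genes. The other 46 members lay between -0.45 (STMN1) and 0.87 (MAP7) on the log2 scale, and 26 of the 45 were within 1.2-fold of vehicle (57.8%, beside 56.8% of all genes). The median of the 45 was 0.11, beside 0.00 over all genes, with 29 higher and 16 lower. Against shControl 21 were higher and 24 lower, with a median of -0.04. With 1 library on each side these differences have no test and no replicate check.

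**Figure D1:**
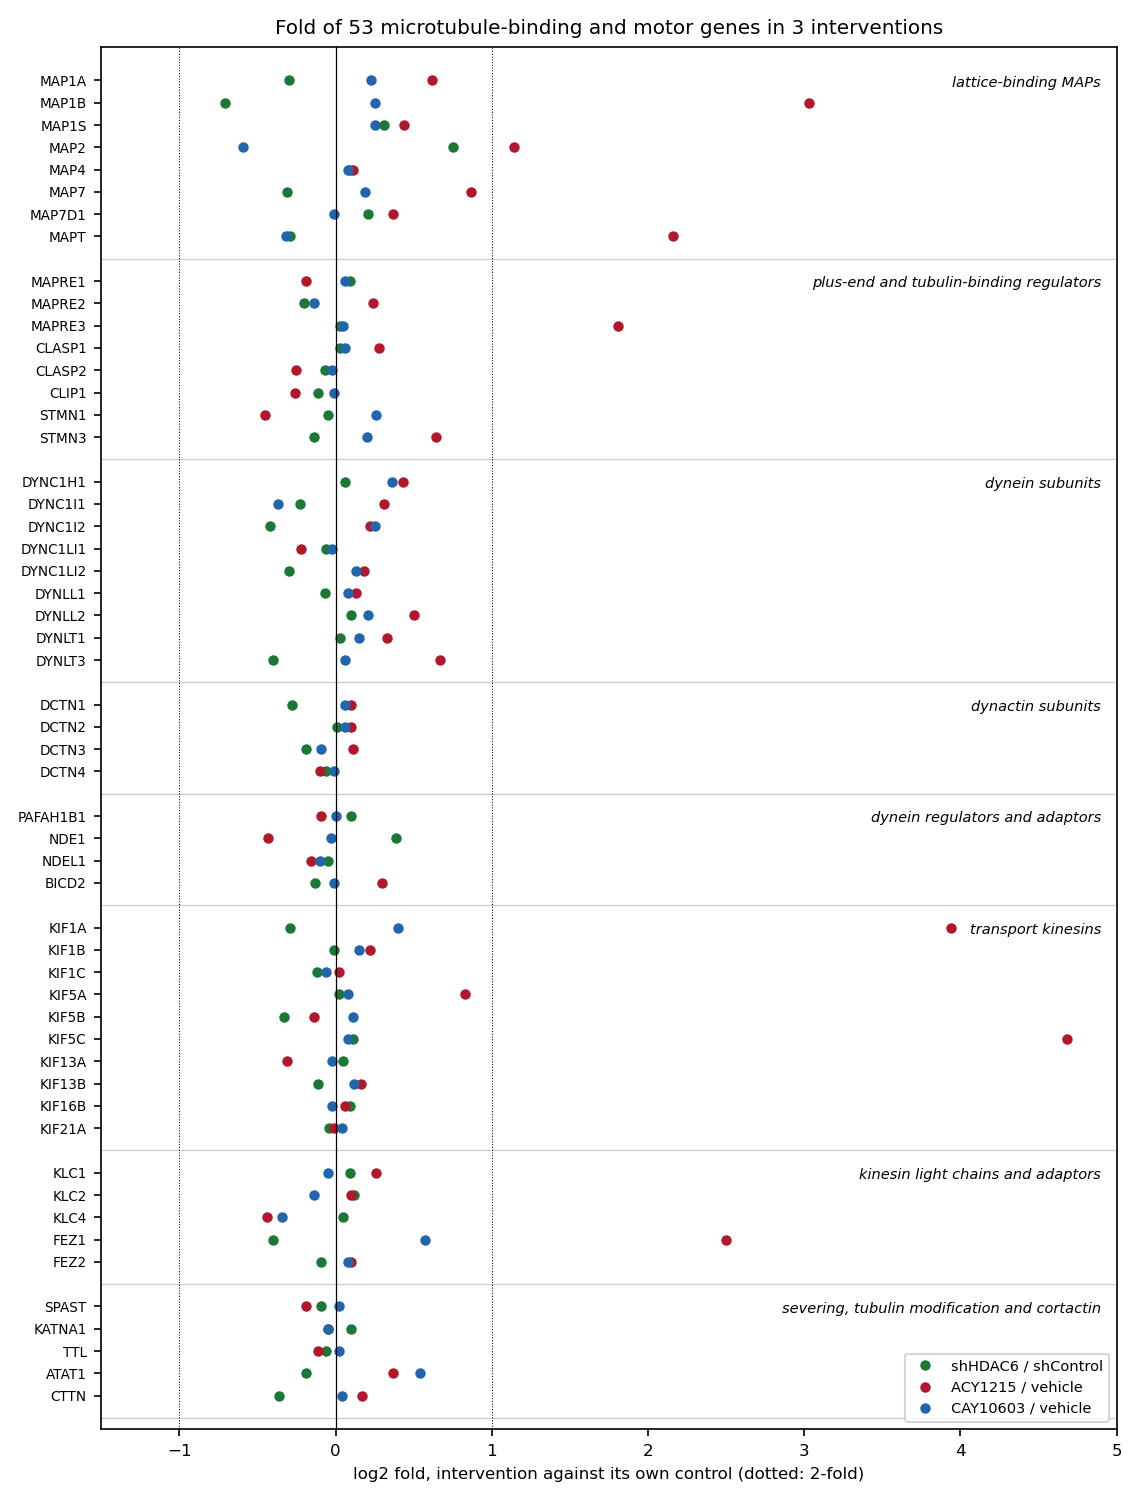
Log2 folds of the 53 members, grouped by role, for shHDAC6 against shControl (green), ACY1215 against vehicle (red) and CAY10603 against vehicle (blue); the dotted lines mark 2-fold. The red points of MAP1B, MAP2, MAPT, MAPRE3, KIF1A, KIF5C and FEZ1 lie to the right of the 2-fold line, up to 4.68 for KIF5C, and the other 46 members lie between -0.45 and 0.87 in ACY1215.

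Among the lattice-binding proteins, all 7 members with a mean of at least 1 CPM were higher in ACY1215 than in vehicle, 2 of them by at least 2-fold, with a median log2 fold of 0.62. Against shControl 5 of the 7 were higher, with a median of 0.34. MAP1B, which binds microtubules in growing axons, stood at 6.80 CPM in shControl, 3.56 in vehicle, 4.13 in shHDAC6, 29.3 in ACY1215 and 4.24 in CAY10603. ACY1215 stood apart from the other 4 libraries, among which shControl was highest. The fold over vehicle was 8.15, a log2 fold of 3.03 (interval 2.80 to 3.29). MAPT, which codes for tau, the axonal microtubule stabiliser, stood at 1.21 CPM in shControl, 1.84 in vehicle, 0.985 in shHDAC6, 8.33 in ACY1215 and 1.47 in CAY10603. Again ACY1215 was the highest library and the other 4 lay below 2 CPM. Its log2 fold was 2.16 (interval 1.84 to 2.54), or 4.46-fold. MAP2, the dendritic relative of tau, had counts of 3 in shControl, 30 in vehicle, 6 in shHDAC6, 80 in ACY1215 and 21 in CAY10603. ACY1215 was highest here too, but the level stayed near 1 CPM (1.53 CPM, interval 1.21 to 1.91), and the log2 fold over vehicle was 1.14 (interval 0.57 to 1.85). On the authors' FPKM with 0.1 added it was 0.83, short of 2-fold. Against shControl the MAP2 count ratio was 29.4 with an interval of 9.72 to 146, resting on 3 counts.

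The other lattice binders differed less. MAP4, the widely expressed member of the MAP2 and tau family and the lattice binder with the highest FPKM, stood at 147 CPM in shControl, 127 in vehicle, 156 in shHDAC6, 137 in ACY1215 and 134 in CAY10603. Those libraries lay within a narrow range, and its log2 fold in ACY1215 was 0.11 (interval 0.06 to 0.16). MAP7, which recruits kinesin-1 to microtubules, stood at 69.5 CPM in shControl, 60.6 in vehicle, 56.0 in shHDAC6, 111 in ACY1215 and 69.3 in CAY10603. ACY1215 was above the 4 other libraries, by 1.83-fold over vehicle and 1.60-fold over shControl. MAP1A, the mature-axon relative of MAP1B, had a log2 fold of 0.62, MAP1S, its widely expressed relative, of 0.44, and MAP7D1 of 0.37.

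**Figure D2:**
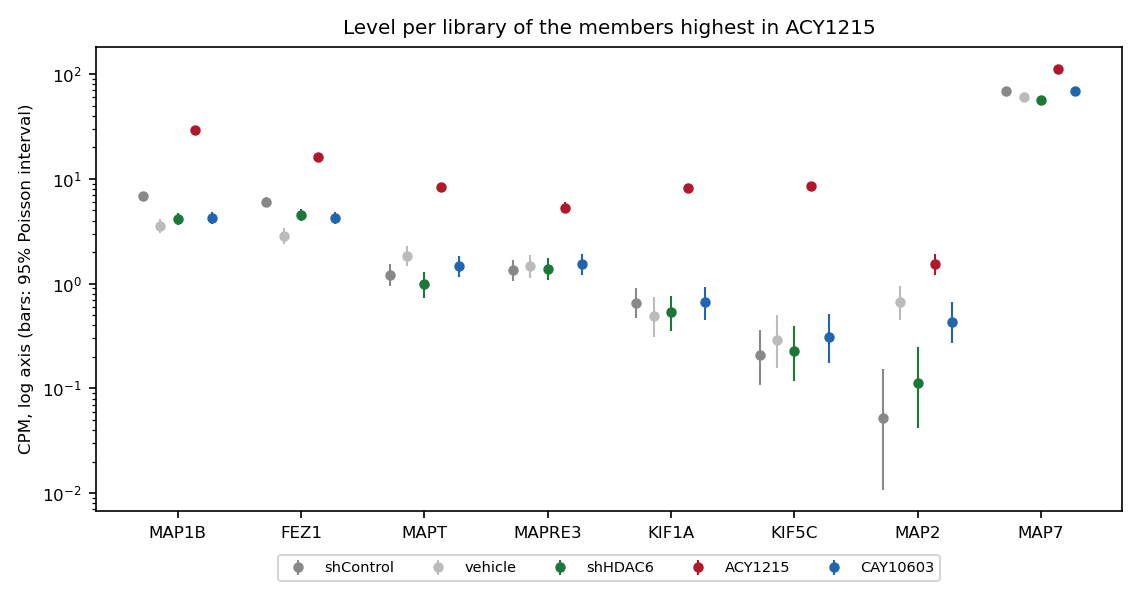
Level in CPM (log axis) of MAP1B, FEZ1, MAPT, MAPRE3, KIF1A, KIF5C, MAP2 and MAP7 in each of the 5 libraries, with exact Poisson intervals at 95% as bars. The ACY1215 point is the highest of the 5 for each gene, and the MAP2 point of shControl, the lowest in the plot, rests on 3 counts.

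The plus-end proteins and stathmins were split in ACY1215, with 4 of 8 higher and 4 lower than vehicle. MAPRE3, the end-binding protein EB3, stood at 1.35 CPM in shControl, 1.48 in vehicle, 1.38 in shHDAC6, 5.29 in ACY1215 and 1.53 in CAY10603. The 4 other libraries lay close together and ACY1215 was 3.51-fold over vehicle, a log2 fold of 1.81 (interval 1.45 to 2.25). Its relatives MAPRE1 (EB1) and MAPRE2 (EB2) had log2 folds of -0.19 and 0.24. CLASP2, which rescues shrinking microtubules, stood at 150.4 CPM in shControl, 144 in vehicle, 143 in shHDAC6, 121 in ACY1215 and 142 in CAY10603. ACY1215 was the lowest library, with a log2 fold of -0.25 (interval -0.30 to -0.20), while CLASP1 had 0.28 and the plus-end tracker CLIP1 -0.26. STMN1 stood at 757 CPM in shControl, 767 in vehicle, 733 in shHDAC6, 561 in ACY1215 and 916 in CAY10603. It was lowest in ACY1215 and highest in CAY10603, with log2 folds over vehicle of -0.45 (interval -0.47 to -0.43) and 0.26 (interval 0.24 to 0.28). STMN3, a stathmin enriched in neurons, lay above vehicle in ACY1215 (0.64).

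Stathmin 1 is linked to the cell cycle, and genes of the G2 and M phases were lower in ACY1215. All 20 of a list of 20 were at least 2-fold lower than in vehicle, with a median log2 fold of -1.31. Against shControl 20 of 20 were lower too, but with a smaller median difference of -0.77. Their summed level was 1228 CPM in ACY1215 beside 2953 in vehicle, 2090 in shControl, 2904 in shHDAC6 and 2993 in CAY10603. In a bulk sample, fewer cells of a phase or type and less RNA per cell cannot be told apart. Markers of neurons were read for the neuronal members: of 20, 5 had a mean of at least 5 CPM, of which 4 were higher in ACY1215 than in vehicle and 1 lower. L1CAM had a log2 fold of 1.67, TUBB3 of 0.84, INA of 0.70 and ENO2 of 0.38, while SCG2 had -0.53. Against shControl 2 of these 5 were higher and 3 lower, with a median of -0.16. Below that floor SNAP25 had 2.14, while NEFM and NEFH, under 1 CPM in every library, had -1.20 and -1.03. At a mean of at least 1 CPM, 7 of 8 markers were higher than vehicle and 5 of 8 higher than shControl. These counts include SYP, which reaches that floor only through ACY1215 (2.34 CPM there, 0.885 or less elsewhere). The summed level of the 20 was 569 CPM in ACY1215 and 302 in vehicle, but 586 in shControl, 511 in shHDAC6 and 340 in CAY10603. TUBB3 made up much of that sum, at 319.5 CPM in ACY1215, 364 in shControl and 178.7 in vehicle. ELAVL3, ELAVL4, SYN1, GAP43 and STMN2, further neuronal markers, lay near 0 in every library, at 0.103 CPM or less. The part of these 2 gene groups in the members' differences was not tested.

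Of 9 dynein subunits, 8 lay above vehicle in ACY1215, with a median of 0.31 and none at 2-fold. That direction depends on the control: 8 of the 9 were above vehicle in shControl too (median 0.23), and against shControl 5 of the 9 were lower in ACY1215 (median -0.02). The motor subunit DYNC1H1 stood at 481 CPM in shControl, 343 in vehicle, 501 in shHDAC6, 463 in ACY1215 and 441 in CAY10603. Vehicle was the lowest of the 5 libraries, so both drug libraries lay above it, by log2 folds of 0.43 (interval 0.40 to 0.46) and 0.36 (interval 0.33 to 0.39). DYNLL1, the LC8 light chain and the dynein subunit with the highest FPKM, stood at 147 CPM in shControl, 132 in vehicle, 139.6 in shHDAC6, 145 in ACY1215 and 139.9 in CAY10603. All 5 libraries lay within a narrow range, and the log2 fold in ACY1215 was 0.13. Its close relative DYNLL2 stood at 20.0 CPM in shControl, 16.7 in vehicle, 21.5 in shHDAC6, 23.6 in ACY1215 and 19.2 in CAY10603. ACY1215 was highest and vehicle lowest, a log2 fold of 0.50 (interval 0.37 to 0.63). DYNLT3, a Tctex light chain, had the largest fold of the dynein subunits in ACY1215, 0.67 (interval 0.59 to 0.76), and DYNLT1 had 0.33. DYNC1LI1, a light intermediate chain that binds cargo adaptors, was the subunit below vehicle, at 92.2 CPM in shControl, 88.8 in vehicle, 88.3 in shHDAC6, 76.3 in ACY1215 and 87.9 in CAY10603. ACY1215 was its lowest library (-0.22 (interval -0.28 to -0.16)), whereas DYNC1LI2 had 0.18. The intermediate chains DYNC1I1, enriched in neurons, and DYNC1I2, widely expressed, had 0.31 and 0.22.

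Dynactin and the dynein regulators showed small differences. DCTN1, the p150Glued arm of dynactin, stood at 365 CPM in shControl, 275 in vehicle, 301 in shHDAC6, 294 in ACY1215 and 286 in CAY10603. shControl was the highest library and the other 4 lay close together, so the log2 fold of ACY1215 was 0.10 against vehicle and -0.31 against shControl. DCTN2, DCTN3 and DCTN4, further dynactin subunits, had 0.10, 0.11 and -0.10 against vehicle. PAFAH1B1, which codes for the dynein regulator LIS1, stood at 174 CPM in shControl, 168 in vehicle, 186 in shHDAC6, 158 in ACY1215 and 168 in CAY10603. The libraries lay within 1.2-fold of each other, with a log2 fold of -0.09 (interval -0.13 to -0.04) in ACY1215. NDEL1, which tethers LIS1 to dynein, stood at 39.1 CPM in shControl, 40.2 in vehicle, 37.7 in shHDAC6, 35.9 in ACY1215 and 37.5 in CAY10603, lowest in ACY1215 (-0.16 (interval -0.26 to -0.07)). Its relative NDE1 had -0.43, and the Golgi and vesicle adaptor BICD2 0.30.

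Of the 10 transport kinesins, 7 were higher and 3 lower in ACY1215 than in vehicle, and 2 were at or past 2-fold. Against shControl 6 were higher and 4 lower. KIF5C, a neuronal kinesin-1 heavy chain, had counts of 12 in shControl, 13 in vehicle, 12 in shHDAC6, 441 in ACY1215 and 15 in CAY10603. That is 8.45 CPM in ACY1215 (interval 7.68 to 9.27), while the 4 other libraries lay at 0.310 CPM or less. The fold over vehicle was 25.7, a log2 fold of 4.68 (interval 4.07 to 5.78), which was the largest of any member. KIF1A, the kinesin-3 that carries synaptic vesicle precursors, had counts of 38 in shControl, 22 in vehicle, 28 in shHDAC6, 423 in ACY1215 and 32 in CAY10603. ACY1215 reached 8.10 CPM (interval 7.35 to 8.91) and the other libraries stayed under 1 CPM. Its fold over vehicle was 15.3, a log2 fold of 3.94 (interval 3.42 to 4.73). Both folds rest on few counts in vehicle, and on the authors' FPKM with 0.1 added they shrink to 2.70 for KIF5C and 2.98 for KIF1A on the log2 scale.

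The other kinesins differed far less. KIF5A, the remaining neuronal kinesin-1 heavy chain, stood at 8.93 CPM in shControl, 7.50 in vehicle, 9.04 in shHDAC6, 13.3 in ACY1215 and 7.96 in CAY10603. ACY1215 was highest, with a log2 fold of 0.83 (interval 0.64 to 1.02). KIF5B, the kinesin-1 heavy chain of most cell types, stood at 1246 CPM in shControl, 1157 in vehicle, 994 in shHDAC6, 1050.4 in ACY1215 and 1248 in CAY10603. Here shHDAC6 was lowest and ACY1215 next, with a log2 fold in ACY1215 of -0.14 (interval -0.16 to -0.12). KIF1B and KIF1C, relatives of KIF1A that carry mitochondria or secretory vesicles, had 0.22 and 0.02. KIF13A and KIF13B had -0.31 and 0.16, the endosome motor KIF16B 0.06, and KIF21A, which restrains microtubule growth at the cell cortex, -0.01.

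Among light chains and adaptors, FEZ1 stood out. FEZ1, an adaptor that links kinesin-1 to cargo and is enriched in neurons, stood at 6.0 CPM in shControl, 2.84 in vehicle, 4.53 in shHDAC6, 16.3 in ACY1215 and 4.24 in CAY10603. ACY1215 was highest, but shControl was also 2.10-fold above vehicle. The fold of ACY1215 was therefore 5.67 over vehicle and 2.71 over shControl, log2 folds of 2.50 (interval 2.25 to 2.80) and 1.44 (interval 1.26 to 1.63). FEZ2, its widely expressed relative and the member of this role with the highest FPKM, stood at 102 CPM in shControl, 101 in vehicle, 96.2 in shHDAC6, 109 in ACY1215 and 107 in CAY10603. The 5 libraries lay close together, and the log2 fold was 0.10. The kinesin light chains KLC1, KLC2 and KLC4, which connect kinesin-1 to cargo, had 0.26, 0.10 and -0.44.

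The severing and modifying enzymes and cortactin had no member past 1.5-fold in ACY1215. Cortactin (CTTN), an actin-binding protein that HDAC6 deacetylates, stood at 538 CPM in shControl, 422 in vehicle, 419 in shHDAC6, 475 in ACY1215 and 433 in CAY10603. shControl was highest and the other 4 lay close together, with a log2 fold of 0.17 (interval 0.14 to 0.20) in ACY1215. ATAT1, the acetyltransferase that adds the mark HDAC6 removes from alpha-tubulin, stood at 4.25 CPM in shControl, 2.55 in vehicle, 3.73 in shHDAC6, 3.31 in ACY1215 and 3.72 in CAY10603. Vehicle was lowest, with log2 folds of 0.37 (interval 0.03 to 0.73) in ACY1215 and 0.54 (interval 0.20 to 0.90) in CAY10603. Spastin (SPAST) and the katanin subunit KATNA1, which cut microtubules, had -0.19 and -0.05, and the tubulin tyrosine ligase TTL had -0.11.

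The members past 2-fold in ACY1215 were those with low levels. Of the 10 members under a mean of 2 FPKM, 6 were at or past 2-fold higher, and all 10 were above vehicle, from 0.31 to 4.68. Against shControl, ATAT1 was lower in ACY1215 (3.31 beside 4.25 CPM). Of the 5 members between 2 and 10 FPKM, 1 (FEZ1) was past 2-fold. None of the 38 members at 10 FPKM or more was, with log2 folds between -0.45 and 0.87. The mean includes the ACY1215 library itself. Shares of all genes in these FPKM bands are not given, so the counts by band describe these members only. By CPM, 9.42% of 2506 genes with a mean of at least 1 and under 5 were at or past 2-fold higher in ACY1215. That range is not the same set as the lowest FPKM band. MAP1A and MAP1B lie above it, at means of 17.1 and 9.61 CPM, and MAP2 below it, at 0.561 CPM. In that CPM range 8.9% were at or past 2-fold lower, and at 5 CPM or more 1.67% of 10738 genes were higher. The same bands held no member past 2-fold in shHDAC6 or CAY10603.

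**Figure D3:**
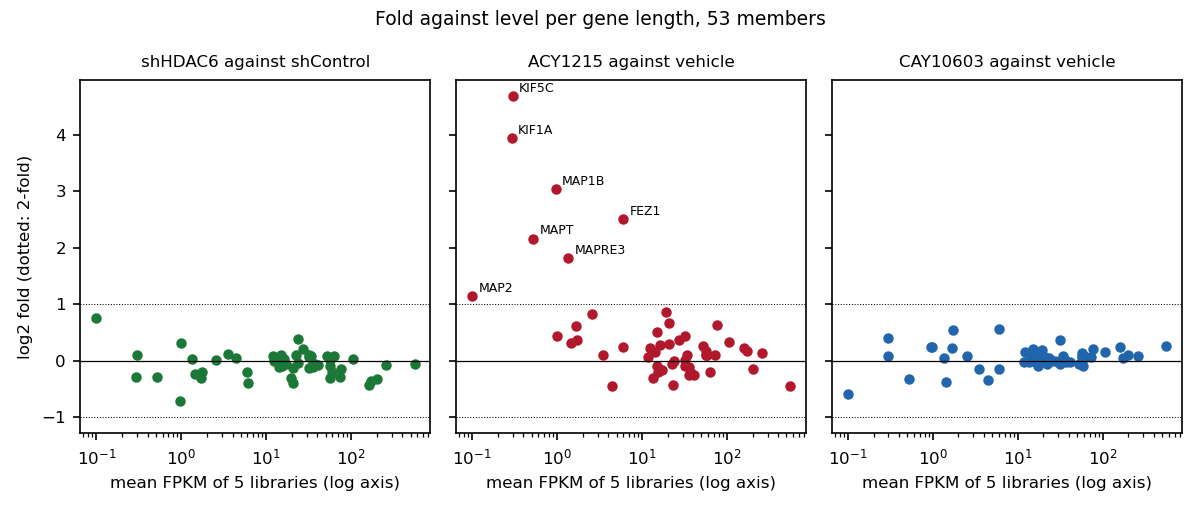
Log2 fold of each of the 53 members against its mean FPKM over the 5 libraries (log axis), in 3 panels for shHDAC6 against shControl, ACY1215 against vehicle and CAY10603 against vehicle; the dotted lines mark 2-fold and members past them are named. In the ACY1215 panel 6 of the 10 members under 2 FPKM lie past 2-fold and none of the 38 at 10 FPKM or more does. Shares of all genes in these FPKM bands are not given, and each mean includes the ACY1215 library.

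The stretch before the start site was read for members that were higher together in ACY1215. RefSeq promoter entries on GRCh38.p14 were found for 46 of the 53 members (72 windows), and MAPT was not among them. MAP2 has an entry, which is not printed. The 250 bases before the start are shown for MAP1B, FEZ1, MAPRE3, KIF1A and KIF5C, and for KIF5B, the paralog of KIF5C whose level hardly differed. Each is read 5′ to 3′ along the gene and, where a gene has several windows, is the most upstream one. Capitals mark matches on either strand to 7 motifs. They are the core of the CREB site (TGACG), the E-box (CACGTG), the box bound by NF-Y (CCAAT), the GC box of the Sp factors (GGGCGG), the core of the REST site (GGACAGC), the core of the TCF and LEF site (TTTGAA) and the AP-1 site (TGACTCA). The windows lie at chr5:72107225-72107474 on the plus strand (MAP1B), chr11:125496266-125496515 on the minus strand (FEZ1), chr2:26970387-26970636 on the plus strand (MAPRE3), chr2:240821404-240821653 on the minus strand (KIF1A), chr2:148874977-148875226 on the plus strand (KIF5C) and chr10:32056426-32056675 on the minus strand (KIF5B).
MAP1B: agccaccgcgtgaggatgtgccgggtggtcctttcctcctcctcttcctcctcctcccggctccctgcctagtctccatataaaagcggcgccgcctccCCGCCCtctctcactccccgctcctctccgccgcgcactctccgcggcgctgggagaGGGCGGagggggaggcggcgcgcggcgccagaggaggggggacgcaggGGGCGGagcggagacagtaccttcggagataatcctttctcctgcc
FEZ1: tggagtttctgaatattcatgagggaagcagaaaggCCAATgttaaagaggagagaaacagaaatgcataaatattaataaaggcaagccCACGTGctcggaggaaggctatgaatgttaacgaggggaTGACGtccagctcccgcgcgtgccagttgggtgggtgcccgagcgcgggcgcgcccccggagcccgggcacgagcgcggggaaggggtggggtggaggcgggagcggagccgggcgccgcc
MAPRE3: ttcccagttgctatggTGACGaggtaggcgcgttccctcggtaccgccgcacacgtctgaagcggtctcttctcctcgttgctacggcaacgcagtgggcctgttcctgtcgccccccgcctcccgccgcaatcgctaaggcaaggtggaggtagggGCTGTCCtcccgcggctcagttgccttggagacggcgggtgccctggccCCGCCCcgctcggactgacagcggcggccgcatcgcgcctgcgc
KIF1A: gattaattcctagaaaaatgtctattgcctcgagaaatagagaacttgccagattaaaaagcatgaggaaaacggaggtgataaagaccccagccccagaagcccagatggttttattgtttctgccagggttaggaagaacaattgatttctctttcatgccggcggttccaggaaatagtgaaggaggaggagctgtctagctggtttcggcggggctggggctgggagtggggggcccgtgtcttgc
KIF5C: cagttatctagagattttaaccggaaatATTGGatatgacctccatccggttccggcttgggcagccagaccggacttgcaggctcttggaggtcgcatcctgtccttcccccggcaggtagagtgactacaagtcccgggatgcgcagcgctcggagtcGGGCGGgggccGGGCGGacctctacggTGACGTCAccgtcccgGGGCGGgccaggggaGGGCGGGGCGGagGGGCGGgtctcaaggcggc
KIF5B: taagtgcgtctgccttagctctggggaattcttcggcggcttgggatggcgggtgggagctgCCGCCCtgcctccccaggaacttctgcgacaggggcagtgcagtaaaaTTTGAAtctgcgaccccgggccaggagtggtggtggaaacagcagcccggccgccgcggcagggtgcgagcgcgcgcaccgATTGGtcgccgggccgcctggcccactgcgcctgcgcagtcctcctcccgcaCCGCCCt
In the windows printed, TGACG was found 121 bases before the start in FEZ1, 234 bases before it in MAPRE3, and on both strands 63 and 60 bases before it in KIF5C, where the 2 matches overlap in a palindrome. Over all windows of a gene, TGACG was in FEZ1, KIF1A, KIF5C, MAP1B and MAPRE3, but not in MAP2. Counted per gene over any of its windows, it was in 22 of the 46 members with an entry. Counted per window, it was in 33.3% of the members' windows and in 21.2% of all 35116 windows. The 2 counts are not alike, since a gene with several windows, such as KIF1A with 3, can match in any of them. No per-gene share over all genes is given. Of the 7 motifs, MAP2 held CCAAT only. GGGCGG was in 66.7% of the members' windows and 42.6% of all, with 6 matches in the KIF5C window, of which the pair at 32 and 27 bases before the start overlaps. MAPRE3 also held GGACAGC on the reverse strand, a motif of 4.76% of all windows and 2.78% of the members'. FEZ1 held CACGTG (6.34% of all windows) and CCAAT (32.0% of all). KIF5B held TTTGAA (13.3% of all), CCAAT and GGGCGG, and no match was found in the KIF1A window printed. TGACTCA, in 4.20% of all windows, was in none of those printed. A match is a string of letters in a window, and factor binding was not measured.

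Within families, the shares of FPKM show how much of a paralog the ACY1215 differences amount to. In the MAP1 family, MAP1B took 20.8% in shControl, 13.6% in vehicle, 14.8% in shHDAC6, 47.1% in ACY1215 and 15.3% in CAY10603. It was the highest of the 3 MAP1 genes in ACY1215 and the lowest of them in the other 4 libraries. FEZ1 took 9.65% in shControl, 3.96% in vehicle, 9.10% in shHDAC6, 19.4% in ACY1215 and 4.33% in CAY10603 of the FEZ pair, so FEZ2 remained the major form in every library. EB3 (MAPRE3) made up 1.08% in shControl, 1.45% in vehicle, 1.09% in shHDAC6, 5.22% in ACY1215 and 1.36% in CAY10603 of the end-binding proteins. STMN3 took 12.5% in shControl, 9.82% in vehicle, 11.9% in shHDAC6, 18.9% in ACY1215 and 9.47% in CAY10603 of the stathmin pair, where STMN1 remained the major form. The kinesins that differed most stayed minor forms. KIF5C made up 0.664% of kinesin-1 heavy chain FPKM in ACY1215 and 0.0593% or less elsewhere, beside 97.4 to 98.9% for KIF5B. KIF1A made up 2.85% of the KIF1 kinesins in ACY1215 and 0.211% or less elsewhere. In the dynein intermediate chains DYNC1I2 held 98.9 to 99.4% in every library. Shares of the authors' FPKM carry no interval, since FPKM alone gives no count.

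**Figure D4:**
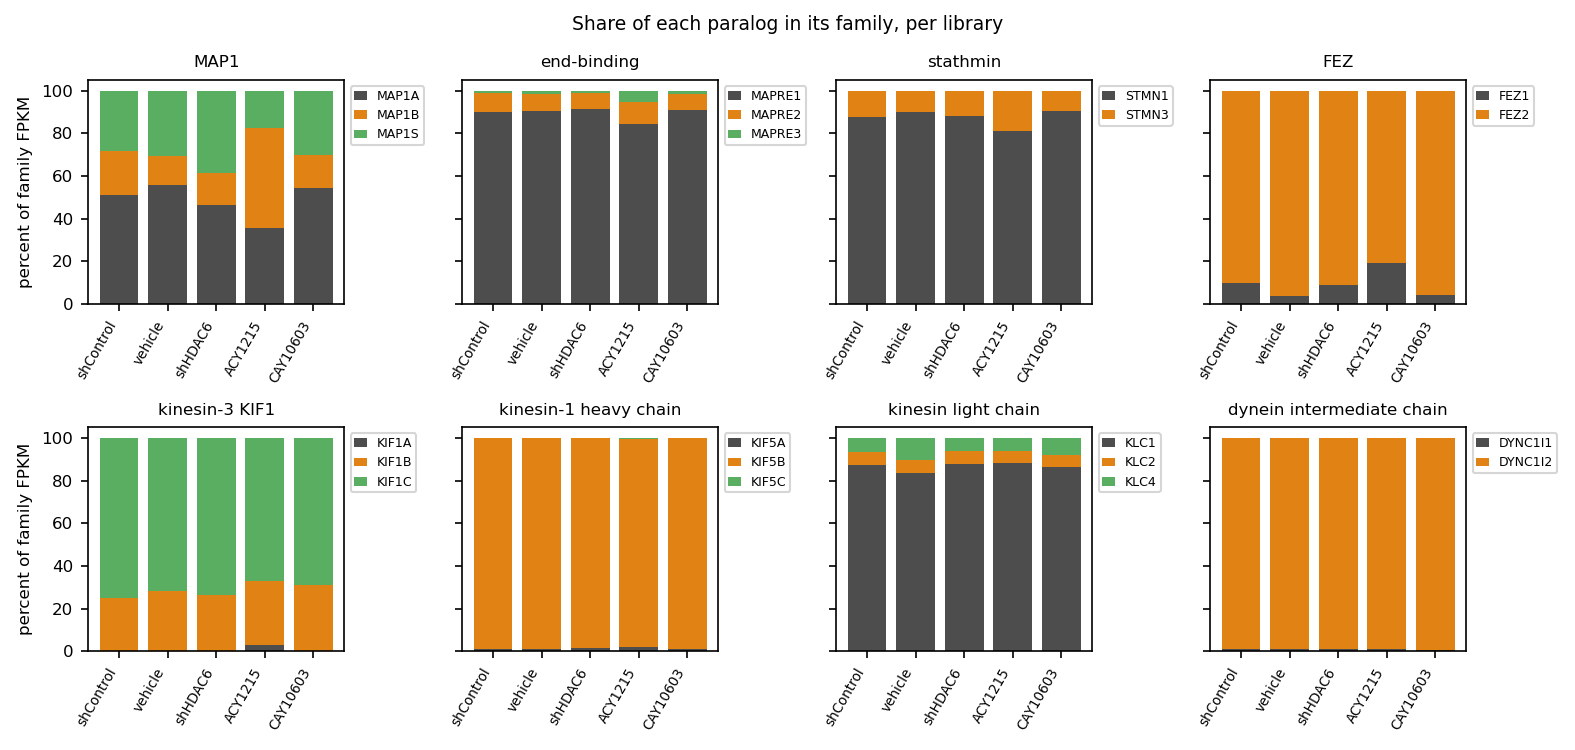
Share of each paralog in the summed FPKM of its family (stacked bars, in percent) for 8 families in the 5 libraries. MAP1B goes from 13.6 to 20.8% in 4 libraries to 47.1% in ACY1215, and FEZ1 from 3.96 to 9.65% to 19.4%, while the kinesin-1 heavy chain and dynein intermediate chain bars look alike in all 5 libraries.

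The knockdown comparison, shHDAC6 against shControl, held 0 members at or past 2-fold of 45, beside 0.689% of 10738 genes. Log2 folds ran from -0.71 to 0.39, with 17 higher, 28 lower and a median of -0.06 (0.00 over all genes), and 34 members lay within 1.2-fold of shControl (75.6%, beside 67.6% of all genes). MAP1B was the lowest, at -0.71 (interval -0.96 to -0.48), and past 1.5-fold, but against vehicle shHDAC6 was 0.21 higher, because shControl lies above vehicle. DYNC1I2 followed at -0.42 (interval -0.45 to -0.38), then FEZ1 at -0.40 (interval -0.65 to -0.16) and DYNLT3 at -0.40 (interval -0.49 to -0.31). CTTN was at -0.36 (interval -0.39 to -0.34), KIF5B at -0.33 (interval -0.34 to -0.31) and DCTN1 at -0.28 (interval -0.31 to -0.25). NDE1, which helps LIS1 act on dynein, was the highest of the 45, at 0.39 (interval 0.28 to 0.50). MAP2, under the floor, had 0.75 (interval -1.10 to 3.75), an interval that spans 0. KIF5C, KIF1A, MAPT and MAPRE3 had intervals that span 0 as well, at 0.11, -0.29, -0.29 and 0.03. Of the 20 G2 and M phase genes, 20 lay above shControl in shHDAC6, with a median of 0.56, but 9 of 20 lay above vehicle (median -0.07), and their part in these differences was not tested.

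CAY10603 against vehicle held 0 members of 45 at or past 2-fold, beside 0.27% of 10738 genes, and none of the 45 past 1.5-fold. The folds ran from -0.34 (KLC4) to 0.57 (FEZ1), with 27 higher, 18 lower and a median of 0.06 (0.01 over all genes). Within 1.2-fold of vehicle were 42 members, 93.3% beside 88.7% of all genes. FEZ1 was the highest at 0.57 (interval 0.25 to 0.91), followed by DYNC1H1 at 0.36 and STMN1 at 0.26. The other members past 2-fold in ACY1215 stayed within counting error of vehicle: MAP1B had 0.25 (interval -0.05 to 0.56), MAPT -0.32 (interval -0.80 to 0.15) and MAPRE3 0.05 (interval -0.45 to 0.55). The same held for KIF1A with 0.40 (interval -0.40 to 1.28), KIF5C with 0.08 (interval -1.08 to 1.28) and MAP2 with -0.59 (interval -1.51 to 0.22). The intervals of MAPT, KIF1A, KIF5C and MAP2 reach past 1.5-fold, so these counts do not exclude a difference of that size.

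The inhibitor libraries were also set against each other, because their folds over vehicle share that library. ACY1215 (ricolinostat) and CAY10603 are different molecules, both hydroxamic acids, and since their doses and times are not given, the values describe these libraries and not the compounds at a matched dose. Of 45 members, 2 were at or past 2-fold lower in CAY10603 than in ACY1215 (4.44%, beside 1.03% of 10738 genes lower) and 0 were higher (2.25% of genes). At a mean of at least 1 CPM they were 6 of 52, beside 2.69% of genes. With the floor on the mean of the libraries other than ACY1215 they were 0 of 43 at 5 CPM (0.802% of genes) and 4 of 50 at 1 CPM (2.17% of genes). At any level the count was 7, the same genes that were high in ACY1215, a library that both comparisons share. Log2 folds were -4.60 (interval -5.62 to -4.03) for KIF5C, -3.54 (interval -4.18 to -3.10) for KIF1A and -2.78 (interval -3.01 to -2.58) for MAP1B. MAPT had -2.47 (interval -2.89 to -2.14), FEZ1 -1.94 (interval -2.17 to -1.72), MAPRE3 -1.76 (interval -2.18 to -1.41) and MAP2 -1.73 (interval -2.59 to -1.11). On the authors' FPKM with 0.1 added, the folds of KIF5C, KIF1A and MAPT shrink to -2.50, -2.81 and -1.74. In the other direction STMN1 was highest, at 0.71 (interval 0.69 to 0.73). Single libraries of each drug allow no test of the difference.

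The controls themselves differed for some members, which sets how far a fold can be read. Of 45 members, 35 were higher in shControl than in vehicle, with a median of 0.16 (0.02 over all genes), 14 were at or past 1.2-fold apart (31.1%, beside 32.5% of genes) and 1 was at or past 2-fold (2.22%, beside 1.41% of 10738 genes in either direction). That member was FEZ1 at 1.07 (interval 0.78 to 1.38), and MAP1B followed at 0.93 (interval 0.66 to 1.21). Under the floor, MAP2 had the widest gap between the controls, a log2 fold of -2.96 and a count ratio of 0.0775 (interval 0.0151 to 0.249). It rests on 3 counts in shControl and 30 in vehicle, or 0.01 and 0.12 on the authors' FPKM. When the other control is used, 24 of the 45 folds change sign in CAY10603, 17 in shHDAC6 and 12 in ACY1215. ACY1215 lay at least 1.5-fold above both controls for 3 of 45 members (6.67%, beside 2.64% of 10738 genes), namely MAP1B, FEZ1 and MAP7, and below both for none (3.46% of genes). With the floor on the mean of the other 4 libraries, MAP7 alone was left, 1 of 43 members (2.33%, beside 2.36% of 10721 genes). shHDAC6 and CAY10603 lay 1.5-fold outside both controls for 0 members, beside 0.494% of genes above and 0.708% below for shHDAC6, and 0.0745% above and 0.0652% below for CAY10603. The 7 members past 2-fold over vehicle in ACY1215 were past 2-fold over shControl too, with log2 folds from 1.44 (FEZ1) to 5.10 (KIF5C).

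**Figure D5:**
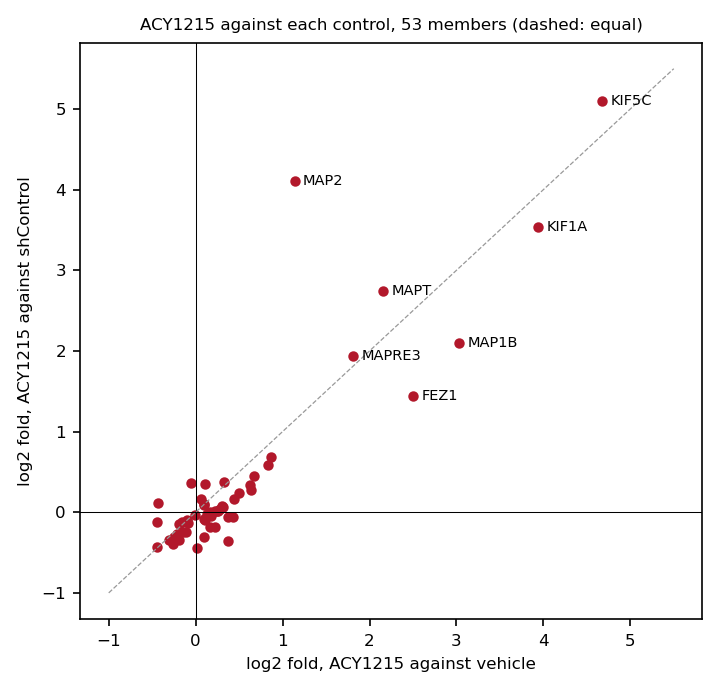
Log2 fold of ACY1215 against vehicle (x axis) and against shControl (y axis) for the 53 members; the dashed line marks equal folds. MAP1B, FEZ1, MAPT, MAPRE3, KIF1A, KIF5C and MAP2 lie past 2-fold on both axes, FEZ1 and MAP1B below the dashed line (1.44 against 2.50, and 2.10 against 3.03), and the other members cluster near 0.

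At a mean of at least 5 CPM, 12 of 45 members (26.7%) had 1 sign in all 3 interventions, beside 22.4% of 10738 genes, a share near that of all genes. The leading members on each side, at any level, are given as values. On the higher side MAP1S had log2 folds of 0.31, 0.44 and 0.25 in shHDAC6, ACY1215 and CAY10603, from levels of 2.95 CPM in shControl, 2.44 in vehicle, 3.68 in shHDAC6, 3.31 in ACY1215 and 2.91 in CAY10603. DYNLL2 had 0.10, 0.50 and 0.21, and KIF5C 0.11, 4.68 and 0.08. The small KIF5C folds rest on 12 counts each in shHDAC6 and shControl, and on 15 in CAY10603 and 13 in vehicle. MAP1S, DYNLL2 and KIF5C did not lie above both controls in every intervention. On the lower side NDEL1 had -0.05, -0.16 and -0.10, CLASP2 -0.07, -0.25 and -0.02, and DYNC1LI1 -0.06, -0.22 and -0.02. Both drug folds share the vehicle library, and none of these genes reached 1.5-fold in shHDAC6.

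Other genes of microtubule transport and binding were counted for comparison, at a mean of at least 5 CPM. Further dynein and dynactin subunits (7 of 9 higher in ACY1215, median 0.10) and further dynein adaptors (7 of 15 higher, median 0.00) held no gene past 2-fold. Of 10 further transport kinesins, 1 was past 2-fold in ACY1215, KIF12, on the lower side. Kinesins of mitosis lay on the opposite side from KIF5C and KIF1A: 14 of 14 were lower in ACY1215 than in vehicle, with a median of -1.37. Of these, 13 were at least 2-fold lower, led by KIF20A, KIF2C and KIF18B. Against shControl 14 of 14 were lower in ACY1215, with a smaller median difference of -0.70. The same 14 were all higher in shHDAC6 than in shControl (median 0.52) and had a median of -0.08 in CAY10603. All 14 were lower in shControl than in vehicle (median -0.62), and against vehicle 5 of the 14 were higher in shHDAC6 and 9 lower (median -0.18). Spindle-binding proteins such as DLGAP5, HMMR and SPAG5 were lower in ACY1215 than in vehicle in 12 of 12, 6 of them by at least 2-fold (median -1.13). Against shControl 12 of 12 were lower, with a median of -0.71. At the same floor, which MAP1B reaches only through ACY1215, lattice binders had medians of 0.62 over vehicle and 0.34 over shControl. Transport kinesins had 0.04 and -0.02. The G2 and M phase genes named above moved with the mitotic kinesins and the spindle-binding proteins.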

How the data were processed

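RNA of 5 TOV21G libraries was read from 1 deposited table of 28442 gene rows (2 blank rows left out, columns of unknown samples 0). Per the file headers, the authors deposited expected counts, which are whole numbers, and FPKM for each gene. RSEM 1.2.3, edgeR and hg19 are named in the submitters' processing notes, without roles. The column headed DMSO was read as vehicle. No aligner, annotation or strand setting was given in those sources.

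Counts were scaled to CPM with TMM (edgeR 4.0.16 in R 4.3.3). Each single pair has 1 library a side and no test: log2 folds used a prior count of 2, 2-fold as the threshold and a floor of 5 CPM on the mean. Intervals are exact Poisson for a level and exact binomial for a ratio (scipy 1.17.1). The pooled fit used glmQLFTest after a robust glmQLFit, with the kind of experiment (hairpin or drug) as covariate. It kept genes that reached 1 CPM in at least 2 libraries and had 2 residual degrees of freedom. P-values were adjusted by Benjamini-Hochberg, with a threshold of 0.05. The spread behind the p-values holds differences between treatments, from which technical and culture spread cannot be told apart without replicates. DESeq2 1.42.0 and limma 3.58.1, other scalings, floors, thresholds and controls were alternatives.

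Members and lists were chosen with earlier results of these data known. Members given in every library were those past 2-fold, those 1.5-fold outside both controls, the highest FPKM of each role, and the leading 3 a side with 1 sign in all interventions. Promoter windows come from RefSeq on GRCh38.p14, matched by gene, a build that differs from that of the counts.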

Additional observations from a re-analysis of the deposited data

Results flagged for a closer look

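In 11 members the difference between shHDAC6 and shControl had the opposite sign to both drug differences, with counting intervals clear of 0 in all 3 pairs. All 11 are among the 45 members with a mean of at least 5 CPM (24.4%), and 19.4% of 10738 genes at that level met the same rule. The members' share is near that of all genes, so the 11 are given as values only. The difference between the hairpin pair and the drug pairs was not tested, and both drugs share the vehicle library. Dynein and dynactin hold 4 of them: DYNC1I2 had log2 folds of -0.42, 0.22 and 0.25 in shHDAC6, ACY1215 and CAY10603, DYNC1LI2 of -0.30, 0.18 and 0.13, DYNLL1 of -0.07, 0.13 and 0.08, and DCTN1 of -0.28, 0.10 and 0.06. Among the microtubule binders, MAP1A had -0.30, 0.62 and 0.23, MAP7 had -0.31, 0.87 and 0.19, and STMN3 had -0.14, 0.64 and 0.20. The kinesin KIF13B had -0.11, 0.16 and 0.12, and the adaptors FEZ1 and FEZ2 had -0.40, 2.50 and 0.57, and -0.09, 0.10 and 0.08. Cortactin (CTTN) had -0.36, 0.17 and 0.04.

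All 11 were also higher in shControl than in vehicle, by log2 differences from 0.01 (FEZ2) to 1.07 (FEZ1), and CTTN (0.35), DCTN1 (0.41) and DYNC1I2 (0.40) lay among them. The part of that gap between the controls in the opposite signs was not tested.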

How the results depend on the processing

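In the pooled comparison the count of members called was 0 with RLE normalization, no filter, DESeq2, limma-voom and no covariate, and 0 to 0 when each library was left out in turn. Counts of members past the threshold were the same with total-count CPM and with RLE scaling, a prior count of 0.5, the authors' FPKM (2 in place of 3 for ACY1215 outside both controls) and the other control. A floor of 1 CPM gave 6 for ACY1215 against vehicle (3.13% of 13244 genes higher) and 6 for CAY10603 against ACY1215 (2.69% lower). It gave 7 for ACY1215 outside both controls, all of them above, beside 4.56% of genes above and 4.38% below. A 1.5-fold threshold gave 1 for shHDAC6, 7 for ACY1215 against vehicle, 6 for CAY10603 against ACY1215 and 2 for shControl against vehicle. A lower fold threshold left 8 outside both controls in ACY1215. No share of all genes is given at these 2 alternative thresholds. Their counts show only how the number of members moves with the threshold. With no floor, a setting chosen after seeing the data, ACY1215 against vehicle and CAY10603 against ACY1215 gave 7 each. With the floor on the mean of the libraries other than ACY1215, also chosen after seeing the data, both gave 0 at 5 CPM and 4 at 1 CPM, and 1 lay outside both controls in ACY1215, because MAP1B, FEZ1, KIF1A and KIF5C then miss the floor.

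Of 16 single values past 2-fold, 16 stayed past it with total counts, RLE or the smaller prior count, and 15 with FPKM, where MAP2 in ACY1215 against vehicle fell short at 0.83. FPKM moved 7 values by over 1.5 times, among MAP2, MAPT, KIF1A and KIF5C. With the other control, 7 of 7 stayed past 2-fold. No paired analysis was possible because the labels give no replicate numbers and each treatment has 1 library. Depth limits KIF5C, KIF1A and MAP2, which hold 38 counts or fewer in each library except ACY1215.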

Other observations

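Among 16 further interphase binders with a mean under 5 CPM, 5 were highest in ACY1215 (MAP6, STMN4, CRMP1, DPYSL3 and DPYSL5) and 2 were lowest there (MAP6D1 and DCX). Among 8 further severing and tubulin-modifying enzymes at that level, 4 were highest in ACY1215 (TTLL9, TTLL11, VASH1 and TPPP) and AGBL3 was lowest. TTLL9 (0.211 CPM in ACY1215, 0.208 in shControl) and STMN4 (0.0958 in ACY1215, 0.062 in CAY10603) were close calls on few counts. No share over all genes is given for this rule, and 1 of the 5 libraries has to be highest for any gene. The counts here and in the next lists are therefore values only and show no trait of a list. In other lists at that level, 5 of 8 transport kinesins, 6 of 15 neuronal and 8 of 9 fibroblast markers were highest in ACY1215. For leukocyte, clear cell carcinoma and endothelial markers the counts were 1 of 8, 0 of 4 and 0 of 6. CRMP1, a collapsin response mediator that binds tubulin in growing axons, stood at 0.121 CPM in shControl, 0.0448 in vehicle, 0.189 in shHDAC6, 4.71 in ACY1215 and 0.145 in CAY10603. Its count ratio of ACY1215 to vehicle was 105 with an interval of 28.8 to 874, resting on 2 counts in vehicle. TPPP, which bundles microtubules, stood at 8.31 CPM in ACY1215 and 2.46 or less in the other libraries, a log2 fold of 1.89. VASH1, a tubulin carboxypeptidase that removes the terminal tyrosine which TTL adds, had 9.21 CPM in ACY1215 beside 4.12 in vehicle (1.15). MAP9, a spindle and cilium microtubule binder with a mean of 54.9 CPM, had log2 folds of -0.57, 0.98 and 0.42 in shHDAC6, ACY1215 and CAY10603.

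Of 34 further interphase binders, 18 had a mean of at least 5 CPM, of which 14 were higher and 4 lower in ACY1215 than in vehicle, with a median of 0.17. GTSE1, a G2 and S phase protein, was the one past 2-fold, on the lower side at -1.68. The spectraplakins MACF1 and DST, which link microtubules to actin, had log2 folds of 0.72 and 0.60 in ACY1215 and 0.47 and 0.45 in CAY10603, and -0.11 and -0.04 in shHDAC6. Of 17 other severing and tubulin-modifying enzymes at that level, 7 were higher and 10 lower in ACY1215, and none was past 2-fold. All these values come from 1 library each and have no test.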
